A study of Mus musculus with 24 samples.

Results

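The genes described here were chosen by symbol, with earlier results of these data known. They are 37 mouse genes of fatty acid oxidation and its control by the peroxisome proliferator-activated receptors (PPARs). Of these, 35 had a probe set, a group of short array probes for 1 transcript, named by their symbol alone, and 33 were bright enough to be tested, out of 18193 genes named on the arrays and 12911 tested. The 33 tested genes were read by 52 probe sets. Acot1 and Fabp1 were on the arrays but below the brightness filter, and Acsl1 and Ucp2 were not analysed here. Ketone body genes are given with the other pathway genes at the end.

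Whole colon of BALB/c mice, an inbred strain, was profiled as total RNA on the Affymetrix MOE430 array pair (430A and 430B). All mice were 6 to 8 weeks old, were put on their diet 2 days before an enema on day 0, and were killed on day 7. The 4 groups were the curcumin diet with the TNBS enema (called curcumin TNBS), the standard diet with the TNBS enema (standard TNBS), the curcumin diet with the control enema (curcumin control) and the standard diet with the control enema (standard control). Trinitrobenzene sulfonic acid (TNBS) is a hapten that provokes colitis in rodents, and curcumin, here at 2% of the diet, is the yellow polyphenol of turmeric. Each group has 3 numbered samples, each on 1 array of each type. The labels state that RNA of 3 mice was pooled per group and do not say whether the numbered samples are separate pools, so errors and p-values measure only the spread between these samples, which may be technical. The study asks how the diet changes colonic gene expression in this colitis.

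Fatty acids enter cells with the help of carriers such as Cd36, are activated by acyl-CoA synthetases, pass into mitochondria through the carnitine shuttle and are then shortened in repeated cycles of dehydrogenation, hydration, dehydrogenation and cleavage. Peroxisomes shorten very long and branched chains. Ppara, Ppard and Pparg encode nuclear receptors that bind fatty acids and their derivatives, and that activate many of these genes as partners of retinoid X receptors, with Ppargc1a as a coactivator. Colonocytes draw much of their energy from oxidation of butyrate made by gut bacteria, and Pparg is abundant in both colonic epithelium and fat.

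The classical PPAR response element is a direct repeat of AGGTCA with 1 base between the copies, AGGTCANAGGTCA. It was searched on both strands, with up to 2 mismatches, in RefSeq promoters of 300 bases (250 before and 50 after the start, build GRCm38.p6). A match was found in 3.86% of all 32851 promoters and in 5 of the 36 promoters of the 33 member genes that had one, those of Plin2, Cd36, Fabp1, Etfa and Slc25a20. A single AGGTCA half-site, which a match may contain, was present in 16.3% of all promoters and in 8 of the 36. The 3 promoters below are shown because they hold a match for genes of uptake, binding and mitochondrial import, with the matched letters in capitals. The match begins 67 bases before the start in Fabp1, with 1 mismatch, and 63 bases before it in Cd36, with 2 mismatches. In Slc25a20 it begins at position 6 after the start, with 2 mismatches.
Fabp1 promoter (chr6:71199629-71199928, plus strand): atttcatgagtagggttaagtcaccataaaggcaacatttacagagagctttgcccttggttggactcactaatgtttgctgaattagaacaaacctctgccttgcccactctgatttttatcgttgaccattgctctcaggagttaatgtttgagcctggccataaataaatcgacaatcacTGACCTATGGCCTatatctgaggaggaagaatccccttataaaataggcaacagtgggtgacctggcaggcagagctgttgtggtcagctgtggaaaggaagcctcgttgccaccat
Cd36 promoter (chr5:17835847-17836146, minus strand): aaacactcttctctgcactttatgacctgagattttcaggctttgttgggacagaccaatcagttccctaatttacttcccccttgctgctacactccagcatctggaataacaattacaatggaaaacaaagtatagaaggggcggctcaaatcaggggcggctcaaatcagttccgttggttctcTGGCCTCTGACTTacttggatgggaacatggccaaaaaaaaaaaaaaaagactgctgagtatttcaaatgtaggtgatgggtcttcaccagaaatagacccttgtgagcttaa
Slc25a20 promoter (chr9:108661886-108662185, plus strand): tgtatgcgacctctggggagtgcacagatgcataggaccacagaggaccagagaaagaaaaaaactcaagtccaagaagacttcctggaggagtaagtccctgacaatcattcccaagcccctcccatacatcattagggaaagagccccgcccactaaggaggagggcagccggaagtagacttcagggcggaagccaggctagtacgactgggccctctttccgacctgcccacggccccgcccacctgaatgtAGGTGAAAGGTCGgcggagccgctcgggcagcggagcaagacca
The next 3 promoters are those of Fabp2, Hadh and Ppargc1a, which are among the 430A members with the smallest p-values under TNBS below, and they hold no match in this window.
Fabp2 promoter (chr3:122894822-122895121, plus strand): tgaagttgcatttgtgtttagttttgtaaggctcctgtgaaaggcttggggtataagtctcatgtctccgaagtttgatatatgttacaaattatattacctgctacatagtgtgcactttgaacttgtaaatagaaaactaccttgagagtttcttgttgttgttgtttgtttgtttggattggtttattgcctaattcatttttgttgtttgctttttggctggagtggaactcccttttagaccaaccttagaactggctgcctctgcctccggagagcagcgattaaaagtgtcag
Hadh promoter (chr3:131272052-131272351, minus strand): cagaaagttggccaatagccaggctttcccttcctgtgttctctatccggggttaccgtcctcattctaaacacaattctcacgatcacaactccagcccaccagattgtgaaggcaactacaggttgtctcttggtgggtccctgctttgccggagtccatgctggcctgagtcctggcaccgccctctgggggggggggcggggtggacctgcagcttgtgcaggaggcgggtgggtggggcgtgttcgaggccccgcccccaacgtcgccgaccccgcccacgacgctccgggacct
Ppargc1a promoter (chr5:51567676-51567975, minus strand): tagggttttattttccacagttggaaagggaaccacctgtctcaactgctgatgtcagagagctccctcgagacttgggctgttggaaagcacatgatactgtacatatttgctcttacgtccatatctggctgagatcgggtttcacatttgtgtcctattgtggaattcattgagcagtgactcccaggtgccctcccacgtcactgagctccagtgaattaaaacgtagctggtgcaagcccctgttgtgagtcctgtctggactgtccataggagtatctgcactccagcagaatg
A match is a description of these letters and says nothing of binding in the colon. Values of Fabp2, Hadh and Ppargc1a, without a match, and of the 5 genes with one are given below. Of those 5, Plin2 and Etfa had log2 differences of 0.08 and 0.18 after TNBS on the standard diet. For curcumin under TNBS they were at 0.03 and 0.01, and Fabp1 was below the filter. Whether a match goes with a difference was not tested.

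Each array had been scaled by the authors to the same trimmed mean, and median signals were 226.7 to 283.9 on 430A and 256.5 to 346.2 on 430B. All 10 absorptive colonocyte markers passed the brightness filter. So did all 5 pancreatic acinar markers on the arrays, so passing it does not by itself identify the tissue. The summed signal of the colonocyte markers on 430A was 56834 to 62808 in curcumin TNBS, 51457 to 61809 in standard TNBS, 60585 to 76872 in curcumin control and 54591 to 66574 in standard control. Macrophage markers summed to 7252 to 8547, 9614 to 11385, 7184 to 7996 and 6734 to 7807 in the same order of groups, and neutrophil markers to 441 to 1271, 3888 to 7719, 807 to 971 and 689 to 852. Pancreatic acinar markers summed to 619 to 54428, 29352 to 74389, 562 to 33369 and 576 to 71606 in the same order. Their lowest standard TNBS array thus lay above the lowest array of each other group. The 430A arrays fell into 2 sets of 6 along the first principal component (32% of the variance), each holding 1 or 2 arrays of each of the 4 groups. A difference within 1 set thus compares 1 array with 2, and no error is given for it. On 430B the arrays of curcumin TNBS samples 2 and 3 stood far from the other 10. The labels name no batch for either split. Results that rest on them are also given after adjusting 430A for the array set and dropping those 2 arrays from 430B.

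On day 7 after TNBS on the standard diet, no member probe set passed the test, limma's moderated test with an adjusted p under 0.05, which 0.00739% of all tested probe sets passed. The lowest p-values belonged to Ppargc1a, Hadh, Fabp2 and Cd36, whose signals lay below those of the standard controls by 1.3-fold to 2.2-fold. At an unadjusted p under 0.05, 7 of the 33 genes (21.2%) were lower, against 4.45% of all tested genes, and 1 (3%) was higher, against 3.94%. The 7 were Hadh, Fabp2, Cd36, Ppara, Acadvl, Acsl3 and Ppargc1a, and the 1 was Acadl. After adjusting for the array set and dropping the outlying 430B arrays, these counts were 9 lower, against 6.89% of all genes, and 2 higher, against 5.51%. Pparg (-0.52), Hsd17b4 (-0.44) and Decr1 (-0.31) then joined the lower genes, Ppargc1a left them, and Acot2 joined the higher ones. The median log2 difference of the members was -0.13, and that of all genes was -0.01.

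**Figure D1:**
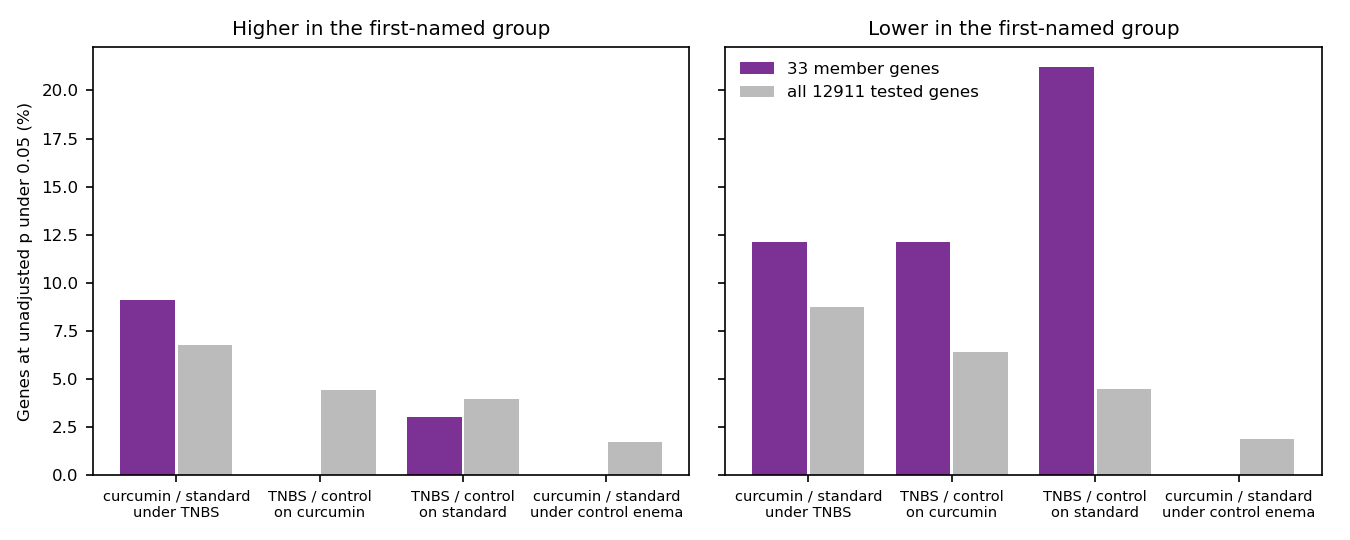
Share of genes at an unadjusted p under 0.05 (vertical axis, percent), higher (left panel) or lower (right panel) in the first-named group, for 4 comparisons; purple bars are the 33 member genes and grey bars all 12911 tested genes. The tallest purple bar, 21.2% lower in TNBS against control enema on the standard diet, stands against a grey bar of 4.45%.

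Among the regulators, Ppargc1a was the most uniform. This coactivator of PPARs and of mitochondrial biogenesis was tested on 4 probe sets, and on each of them all 3 standard TNBS arrays lay below all 3 standard controls. The least variable of them was picked after its values were seen. It was dim, with a mean log2 signal of 7.77, against 8.95 on the brightest, which is given next. On the least variable, the signals were 145, 149 and 150 in standard TNBS, against 235, 237 and 244 in standard control, and 222, 258 and 211 in curcumin TNBS, against 210, 211 and 192 in curcumin control. The standard TNBS arrays were thus the lowest of all 12. The log2 difference between standard TNBS and standard control was -0.64 ± 0.18 (SE, n = 3 each), 1.56-fold lower, with a limma p of 0.00339 and an adjusted p of 0.211.

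The other Ppargc1a probe sets spread more. The brightest, which stands for the gene in the counts, gave 337, 462 and 382 in standard TNBS, against 472, 536 and 564 in standard control, and 403, 568 and 588 in curcumin TNBS, against 593, 489 and 440 in curcumin control. Its log2 difference after TNBS on the standard diet was -0.41 ± 0.18 (SE, n = 3 each), with an adjusted p of 0.519 in limma. The remaining 2 gave -0.64 ± 0.19 and -1.16 ± 0.32. All 4 of these differences point down, and they range between 1.3-fold and 2.2-fold. Within array set 1, with 2 standard TNBS arrays against 1 standard control, the brightest was at -0.16 and the remaining 2 at -0.41 and -0.42. Within array set 2, with 1 array against 2, they were at -0.68, -0.98 and -1.5. The least variable was at -0.6 and -0.68.

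Ppara, the receptor best known for switching on liver fatty acid oxidation, was measured on 430B. It gave 439, 1066 and 758 in standard TNBS, against 1188, 1008 and 1217 in standard control, and 1184, 1116 and 809 in curcumin TNBS, against 1133, 1259 and 1190 in curcumin control. The standard TNBS sample 2 overlapped the controls, and the log2 difference was -0.67 ± 0.25 with a limma p of 0.0191 and an adjusted p of 0.845. It was -0.33 without standard TNBS sample 1 and -0.95 without sample 2, and a second tested probe set of Ppara gave -0.49 ± 0.29 (adjusted p = 0.992). Pparg, the receptor of adipocytes and colonic epithelium, gave 328, 469 and 295 in standard TNBS, against 605, 452 and 451 in standard control. Here too sample 2 overlapped the controls, and the log2 difference of -0.46 ± 0.22 had an adjusted p of 0.57 in limma. Ppard, the most widely expressed of the receptors, gave 3441, 4431 and 4696 in standard TNBS, against 4772, 4607 and 3660 in standard control, a log2 difference of -0.06 ± 0.22.

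**Figure D2:**
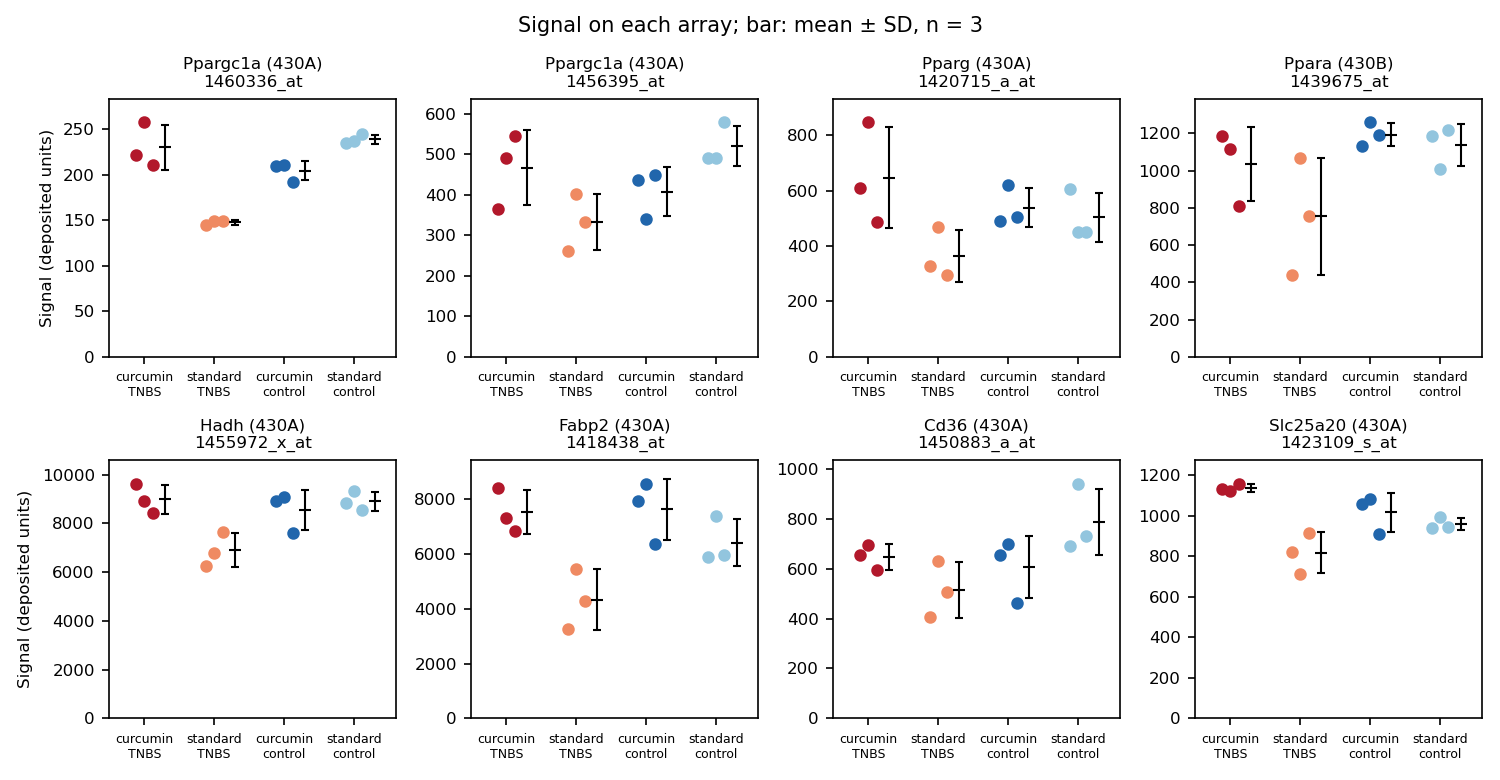
Deposited signal (vertical axes, linear from 0) of 8 probe sets of 7 member genes on each array; points are the 3 samples of a group, and the bar beside them is the mean ± SD (n = 3). For Ppargc1a (first panel) the standard TNBS points, 145 to 150, lie below all others, and for Fabp2 they lie at 3261 to 5462, below the curcumin TNBS points at 6845 to 8423. The Ppargc1a and Slc25a20 probe sets shown were picked after their values were seen. They are dimmer than those that stand for these genes in the counts. The latter gave smaller differences of standard TNBS from standard control and from curcumin TNBS.

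Of the 11 tested enzymes of the mitochondrial cycle, Hadh and Acadvl were lower and Acadl higher in standard TNBS at an unadjusted p under 0.05. Hadh encodes the short-chain 3-hydroxyacyl-CoA dehydrogenase, which oxidises hydroxyacyl-CoAs of short and medium length. Its signals were 6256, 6791 and 7637 in standard TNBS, against 8821, 9333 and 8558 in standard control, and 9619, 8908 and 8414 in curcumin TNBS, against 8931, 9093 and 7592 in curcumin control. The groups on the standard diet did not overlap, with a log2 difference of -0.37 ± 0.11 (1.29-fold lower) and an adjusted p of 0.243 in limma. A second, dimmer probe set of Hadh gave -0.41 ± 0.11 with an adjusted p of 0.193, also with no overlap.

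Acadvl, the dehydrogenase for very long chains, averaged 1923 ± 364 in standard TNBS and 2446 ± 235 in standard control (SD, n = 3 each), a log2 difference of -0.36 ± 0.14 with a limma p of 0.0244 and an adjusted p of 0.434. Acadl, the dehydrogenase for long chains, ran the other way and was the member counted as higher. It gave 2866, 2723 and 2810 in standard TNBS, against 2429, 2116 and 2248 in standard control, a log2 difference of 0.31 ± 0.11 with no overlap and an adjusted p of 0.389 in limma. Its second, dimmer probe set gave 201 ± 48.8 in standard TNBS and 181 ± 32.9 in standard control (SD, n = 3 each), and these groups overlapped.

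The remaining 8 tested enzymes of the cycle had log2 differences between -0.22 (Decr1, which handles unsaturated chains) and 0.13 (Hadhb, the thiolase subunit of the trifunctional protein). Acadm, the medium-chain dehydrogenase, was at -0.19 and Hadha, the other subunit of the trifunctional protein, at -0.02. None of these reached an unadjusted p of 0.05 in limma. The median SE of a member difference was 0.177 on 430A and 0.27 on 430B.

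Of the 4 tested members of uptake, binding, storage and thioester cleavage, Fabp2 and Cd36 were lower in standard TNBS at an unadjusted p under 0.05, while Acot2 (0.39 ± 0.39) and Plin2 had positive log2 differences. Fabp2, the intestinal fatty acid binding protein, gave 3261, 5462 and 4275 in standard TNBS, against 5872, 7388 and 5977 in standard control, and 8423, 7315 and 6845 in curcumin TNBS, against 7946, 8558 and 6378 in curcumin control. All standard TNBS arrays were below all others. The difference from standard control was -0.59 ± 0.18 on the log2 scale (1.5-fold lower), with an adjusted p of 0.281 in limma. It was -1.02 within array set 2, with 1 standard TNBS array against 2 standard controls. Within array set 1, with 2 arrays against 1, it was -0.28.

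Cd36, the fatty acid translocase of fat cells, macrophages and endothelium, gave 407, 630 and 507 in standard TNBS, against 692, 941 and 730 in standard control, and 656, 697 and 594 in curcumin TNBS, against 654, 701 and 464 in curcumin control. Its log2 difference on the standard diet was -0.61 ± 0.20 (1.52-fold lower), with no overlap and an adjusted p of 0.317 in limma. It was -1.0 within array set 2 and -0.28 within array set 1, again with 1 array against 2 and with 2 against 1. The second tested probe set of Cd36 ranged between 188 and 721 within standard TNBS alone and overlapped the controls. Plin2, the coat protein of lipid droplets, was at 0.08 ± 0.18.

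Cd36 and Pparg are also fat cell genes, and the fat cell markers were low on the same arrays. Of 10 fixed adipocyte markers, 6 were tested, and 3 of these (Adipoq, Cidec and Fabp4) were lower in standard TNBS than in standard control at an unadjusted p under 0.05, with a median log2 difference of -0.52. Adipoq, the fat cell hormone adiponectin, was at -1.03 ± 0.34 with an adjusted p of 0.335 in limma. Summed over the markers on 430A, the adipocyte signal was 8878 to 13457 in curcumin TNBS, 4745 to 10751 in standard TNBS, 8122 to 13064 in curcumin control and 10997 to 12319 in standard control. Lep was below the filter, as were Ucp1 and Cidea, the defining markers of brown fat. Macrophage markers differed the other way, with 4 of 7 tested (Cd14, Csf1r, Lyz2 and Tyrobp) higher in standard TNBS than in standard control at an unadjusted p under 0.05, as were all 3 tested neutrophil markers. Of the 10 absorptive colonocyte markers, 2 were lower (Aqp8, at -0.59, and Slc26a3, at -0.29) and 1 higher (Slc9a3, at 0.68). The 5 tested pancreatic acinar markers had a median log2 difference of 1.92, with 0 at an unadjusted p under 0.05 in limma. The part of fat, of colonocytes, of infiltrating cells and of pancreatic tissue in the member differences was not tested. In whole tissue, fewer cells of a type and less RNA per cell cannot be told apart.

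Under TNBS, the curcumin diet against the standard diet gave 1 member probe set past the threshold, that of Acot2, which was lower, where 0.805% of all tested probe sets passed. Its call rests on the outlying 430B arrays and is described with them below. On 430A the smallest p-values belonged to Fabp2, Slc25a20, Ppargc1a, Hadh and Pparg, all with higher signals in curcumin TNBS than in standard TNBS and none past the threshold. At an unadjusted p under 0.05, 3 of the 33 genes were higher, against 6.75% of all tested genes, and 4 were lower, against 8.74%, so the shares of 9.1% and 12.1% were near those of all genes. After the same adjustment, 8 were higher, against 6.39% of all genes, and 2 lower, against 6.25%. The 8 were Fabp2 (0.87), Pparg (0.85), Hadh (0.40), Decr1 (0.40), Slc25a20 (0.32), Hsd17b4 (0.31), Acaa2 (0.27) and Acadm (0.26), with adjusted p-values of 0.059 to 0.314 in limma, and the 2 were Acot2 and Angptl4. The median log2 difference of the members was 0.10 in the fit of all arrays and 0.16 in that alternative. Under the control enema, the same diet comparison gave medians of 0.10 and 0.05. The comparison of diets under TNBS uses the same standard TNBS arrays as TNBS against control enema on the standard diet. A low value on those arrays thus enters both.

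Fabp2 had the largest ratio of difference to error on 430A. Its curcumin TNBS signals, 6845 to 8423, lay above its standard TNBS signals, 3261 to 5462, by 0.82 ± 0.18 on the log2 scale (1.77-fold higher), with a limma p of 0.000595 and an adjusted p of 0.143. The difference was 0.80 within array set 1 and 1.11 within array set 2. Markers of small intestinal enterocytes, the cells richest in this protein, were mostly below the filter (4 of the 5 on 430A), with a summed signal of 444 to 694 in curcumin TNBS and 527 to 563 in standard TNBS. Of the 10 absorptive colonocyte markers, 2 were higher in curcumin TNBS than in standard TNBS at an unadjusted p under 0.05, the water channel Aqp8 (0.73 ± 0.22) and the chloride exchanger Slc26a3 (0.44 ± 0.13), and 1 was lower, the 430B gene Slc9a3 (-0.76 ± 0.21). All 3 tested neutrophil markers and 3 of 7 macrophage markers were lower. The 5 tested pancreatic acinar markers had a median log2 difference of -2.98, with 0 at an unadjusted p under 0.05 in limma. The part of all these cells in the member differences was not tested.

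Pparg gave 608, 846 and 486 in curcumin TNBS, against 328, 469 and 295 in standard TNBS, and 491, 620 and 505 in curcumin control, against 605, 452 and 451 in standard control. The TNBS groups did not overlap, and the log2 difference was 0.79 ± 0.22 (1.73-fold higher) with an adjusted p of 0.223 in limma. Within the array sets it was 0.69 and 0.94. The adipocyte markers were also higher in curcumin TNBS than in standard TNBS, with 2 of 6 at an unadjusted p under 0.05 and a median log2 difference of 0.58, and their part in the Pparg difference was not tested.

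Ppargc1a was higher in curcumin TNBS on all 4 probe sets, by 0.38 ± 0.18 on the brightest, 0.58 ± 0.18 on the least variable, and 0.47 ± 0.19 and 1.16 ± 0.32 on the other two on the log2 scale, with adjusted p-values in limma of 0.509, 0.258, 0.421 and 0.223 in the same order. The groups overlapped on the brightest and on the one at 0.47, and not on the others. Within array set 1, with 1 curcumin TNBS array against 2 standard TNBS arrays, those 2 were at -0.06 and -0.00. Within array set 2, with 2 arrays against 1, they were at 0.75 and 0.94. The least variable was at 0.52 in set 1 and 0.63 in set 2, and the last at 0.98 and 1.22. Hadh was at 0.38 ± 0.11 on each of its 2 tested probe sets (1.3-fold higher), with no overlap and adjusted p-values of 0.223 and 0.227 in limma. Ppara, measured on 430B, was at 0.52 ± 0.25 with overlap. It was at 0.73 without the outlying arrays, which leaves curcumin TNBS sample 1 alone in its group.

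Slc25a20 carries acylcarnitines across the inner mitochondrial membrane. Its dimmer probe set gave 1130, 1121 and 1157 in curcumin TNBS, against 820, 713 and 916 in standard TNBS, and 1055, 1084 and 907 in curcumin control, against 939, 993 and 942 in standard control. The TNBS groups did not overlap and differed by 0.48 ± 0.12 on the log2 scale (1.39-fold), with an adjusted p of 0.186 in limma. The brighter probe set of Slc25a20, which stands for the gene in the counts, gave 0.27 ± 0.15, so the size depends on the probe set.

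Members with lower signals in curcumin TNBS than in standard TNBS included Angptl4, a secreted inhibitor of lipoprotein lipase and a PPAR target, which averaged 325 ± 93.3 in curcumin TNBS and 475 ± 87.8 in standard TNBS (SD, n = 3 each). The groups overlapped, and the log2 difference of -0.55 ± 0.24 had an adjusted p of 0.455 in limma and lay between -0.71 and -0.31 with 1 sample left out. Acadl gave 2652, 2337 and 2110 in curcumin TNBS, against 2866, 2723 and 2810 in standard TNBS, a log2 difference of -0.25 ± 0.11 with no overlap and an adjusted p of 0.482 in limma. Among the 11 enzymes of the mitochondrial cycle, 10 had a positive log2 difference, of which 8 were between 0.02 (Hadhb) and 0.23 (Acaa2, the thiolase), and only Hadh and Acadl reached an unadjusted p under 0.05. Their median was 0.10.

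**Figure D3:**
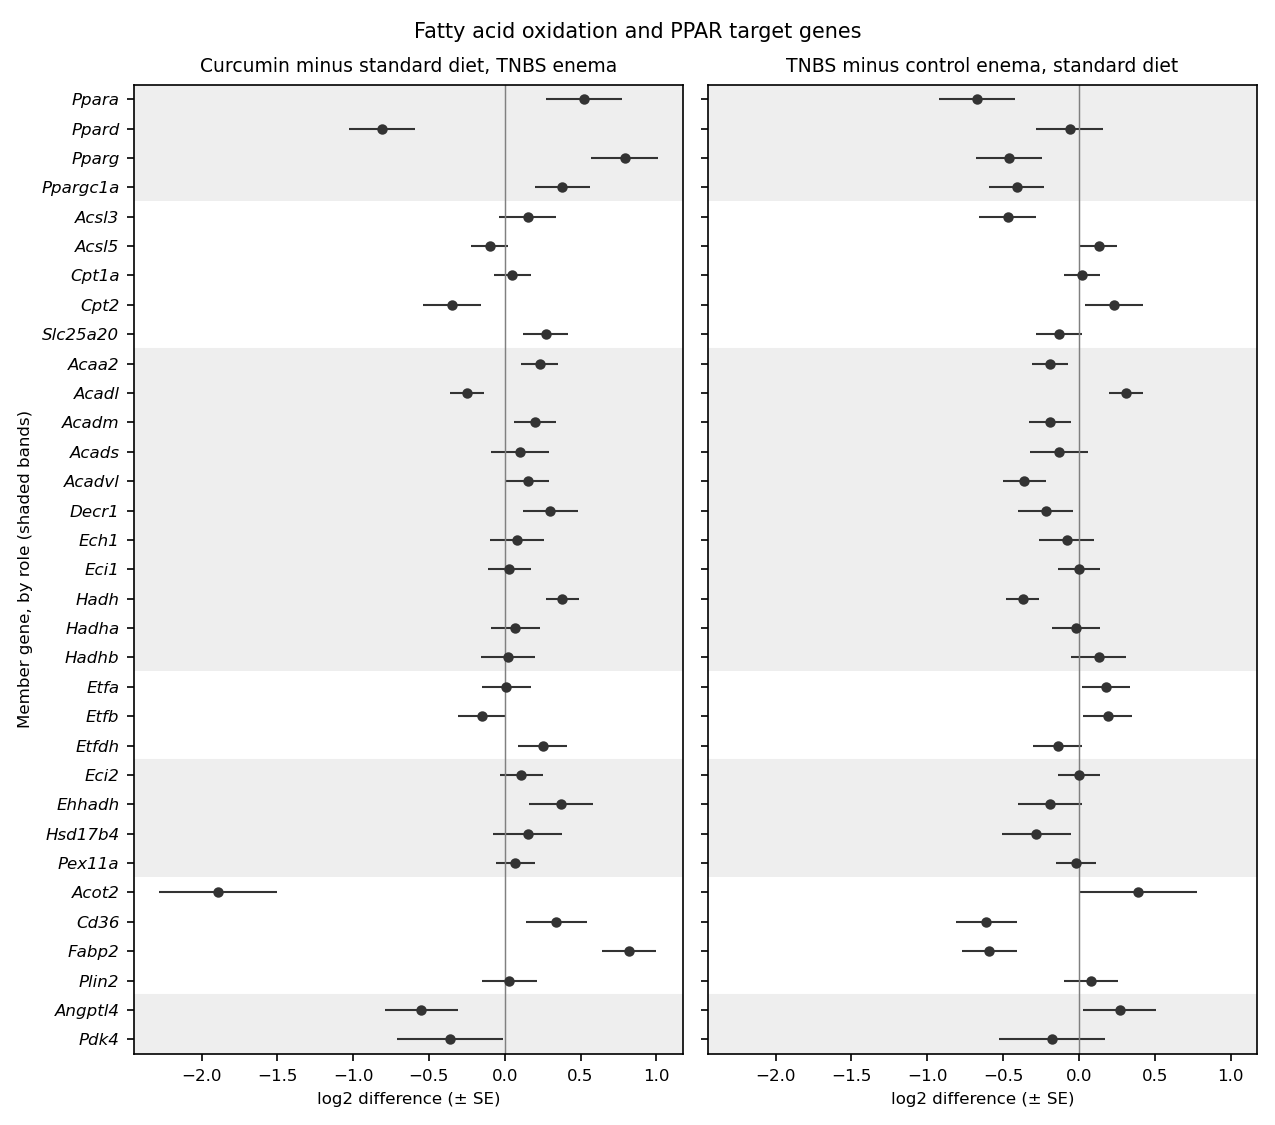
Log2 difference ± SE (horizontal axes, same scale) of the 33 member genes, for curcumin against standard diet under TNBS (left) and TNBS against control enema on the standard diet (right); shaded bands part the roles, regulators at the top and other PPAR targets at the bottom. Acot2 lies farthest from 0 in the left panel (-1.89), and Ppara (-0.67) in the right; both panels use the standard TNBS arrays.

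Whether the enema difference depended on the diet was tested as an interaction, the TNBS difference on curcumin minus that on the standard diet. No member probe set passed, where 0.0332% of all tested probe sets did. At an unadjusted p under 0.05, 4 genes had a positive interaction (Hadh, Cd36, Fabp2 and Pparg), against 5.8% of all genes, and 3 a negative one (Acot2, Ppard and Acadl), against 7.27%. After adjusting for the array set and dropping the outlying arrays, 6 were positive, against 6.04% of all genes, and 3 negative, against 5.93%. For Hadh it was 0.45 ± 0.15 and for its second probe set 0.63 ± 0.15, with adjusted p-values of 0.352 and 0.239 in limma. For Cd36 it was 0.72 ± 0.28 (adjusted p = 0.415), for Fabp2 0.57 ± 0.25 (adjusted p = 0.48), for Pparg 0.69 ± 0.32 (adjusted p = 0.5) and for Acadl -0.44 ± 0.16 (adjusted p = 0.388). Ppargc1a gave 0.43 ± 0.26 on its brightest probe set and 0.80 ± 0.25 on the least variable (adjusted p = 0.32). A different response of these genes on the 2 diets was therefore not shown at the threshold.

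TNBS against the control enema on the curcumin diet also gave 1 member past the threshold, Acot2, lower in curcumin TNBS, where 0.203% of all tested probe sets passed. At an unadjusted p under 0.05, 0 of the 33 genes were higher, against 4.43% of all genes, and 4 were lower, against 6.4%: Acot2, Ppard, Acsl3 and Pdk4. Of these, 3 were measured on 430B. After the same adjustment, 0 were higher, against 2.1% of all genes, and 2 (Acot2 and Pdk4) lower, against 2.78%. Pdk4, the kinase that shuts down pyruvate dehydrogenase when fat is burned, was on 430A and gave 428, 189 and 272 in curcumin TNBS, against 594, 393 and 599 in curcumin control, and 446, 478 and 229 in standard TNBS, against 648, 325 and 343 in standard control. Its groups overlapped, with a log2 difference of -0.85 ± 0.35 on curcumin and an adjusted p of 1 in limma. Cpt2, the inner-membrane enzyme of the carnitine shuttle, gave 1035, 937 and 1344 in curcumin TNBS, against 1619, 1341 and 1156 in curcumin control, and 1164, 1642 and 1425 in standard TNBS, against 1313, 959 and 1336 in standard control. It overlapped too, at -0.31 ± 0.19. Of the 7 genes low in standard TNBS, Acsl3 was low after TNBS on curcumin too with all arrays, at -0.57 ± 0.19. Without the outlying 430B arrays it was at -0.26. With all arrays, Ppara and Acadvl were at -0.22 ± 0.25 and -0.19 ± 0.14. The other 4 were nearer to 0, with Fabp2 at -0.01 ± 0.18, Cd36 at 0.11 ± 0.20, Hadh at 0.08 ± 0.11 and the brightest Ppargc1a probe set at 0.03 ± 0.18.

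The members lower on 430B in curcumin TNBS followed the 2 outlying arrays. Acot2, a mitochondrial thioesterase that releases free fatty acids from acyl-CoAs, gave 778, 169 and 187 in curcumin TNBS, against 1313, 1211 and 922 in standard TNBS, 1245, 1138 and 1221 in curcumin control and 922, 881 and 796 in standard control. The low values are the arrays of samples 2 and 3. With all arrays, Acot2 fell by 1.97 ± 0.39 on the log2 scale against curcumin control (adjusted p = 0.0485 in limma) and differed by -1.89 ± 0.39 from standard TNBS (adjusted p = 0.0398). Without those 2 arrays the log2 differences were -0.61 (adjusted p = 0.957) and -0.54 (adjusted p = 0.857), with sample 1 alone in its group and assumed to vary like the others. A probe set of Acot2 on 430A was below the filter, with 136, 109 and 174 in curcumin TNBS. A further probe set is shared by Acot2 and Acot1 and was left unnamed.

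Ppard gave 3426, 1965 and 1966 in curcumin TNBS, against 3951, 5768 and 4486 in curcumin control, a log2 difference of -0.98 ± 0.22 (adjusted p = 0.0586 in limma), which was -0.45 without the outlying arrays. Against standard TNBS it was -0.81 ± 0.22 (adjusted p = 0.066) and -0.28 without them. Acsl3, which activates long-chain fatty acids, gave 6441, 4640 and 4739 in curcumin TNBS, 3627, 6036 and 4760 in standard TNBS, 7217, 8536 and 7499 in curcumin control and 7314, 6907 and 5518 in standard control. Its difference from curcumin control was -0.57 ± 0.19 (adjusted p = 0.113) and -0.26 without the outlying arrays. Another probe set of Acsl3 read 1199, 1619 and 1409 in curcumin TNBS and 1134, 1606 and 1240 in curcumin control, which overlapped. On the standard diet, where those arrays take no direct part, the brightest Acsl3 probe set was at -0.47 ± 0.19 after TNBS (adjusted p = 0.885), and between -0.65 and -0.28 with 1 sample left out.

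**Figure D4:**
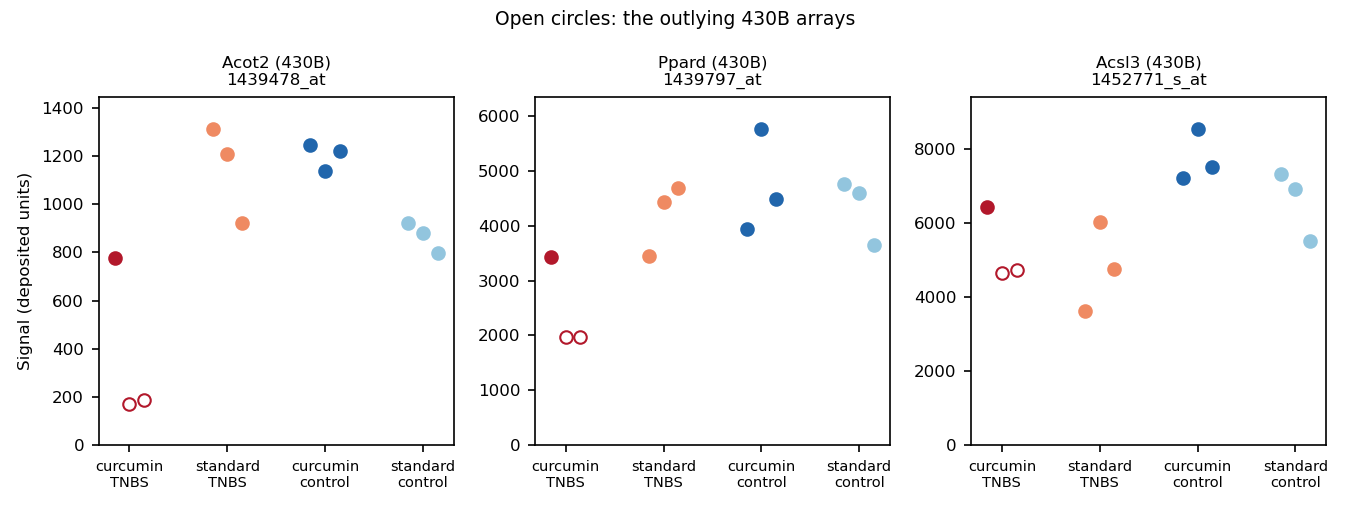
Deposited signal (vertical axes, linear from 0) of the 430B probe sets of Acot2, Ppard and Acsl3 on each array by group; open circles mark the arrays of curcumin TNBS samples 2 and 3, which stand apart over all 430B probe sets. For Acot2 the open circles are at 169 and 187 and the third sample at 778.

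Without TNBS, the curcumin diet against the standard diet gave no member past the threshold, where 0.00369% of all probe sets passed. At an unadjusted p under 0.05, 0 of the 33 genes were higher, against 1.7% of all genes, and 0 lower, against 1.88%. After adjustment 1 was higher (Acot2, at 0.47), against 2.56%, and 0 lower, against 2.88%. The median log2 difference of the members was 0.10, the same as for the diets under TNBS. Positive differences were 23 of the 33 here and 25 of the 33 under TNBS. Over all member probe sets the smallest p-value, 0.0383 in limma, was that of the dimmer Hadh probe set, which does not stand for the gene and was at -0.25 ± 0.11 with an adjusted p of 0.998. Among the probe sets that stand for a gene, the smallest were those of Cd36, at -0.38 ± 0.20, Acadl, at 0.19 ± 0.11, and the electron transfer flavoprotein subunits Etfa and Etfb, which hand electrons of the acyl-CoA dehydrogenases on towards the respiratory chain. Etfa gave 3123, 2958 and 2625 in curcumin control, against 2834, 1876 and 2642 in standard control, and 3126, 2722 and 2484 in curcumin TNBS, against 2714, 3032 and 2496 in standard TNBS. Etfb gave 3789, 5519 and 4859 in curcumin control, against 4087, 3989 and 3668 in standard control, and 4339, 3772 and 3988 in curcumin TNBS, against 3658, 4580 and 5287 in standard TNBS. Both overlapped in every pair of groups described here, with log2 differences of 0.26 ± 0.16 and 0.25 ± 0.16.

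Several members were steady across all 12 arrays of their type. Cpt1a, the carnitine palmitoyltransferase that sets the rate of entry into mitochondria, averaged 3099 ± 56.7 in curcumin TNBS, 3005 ± 348 in standard TNBS, 2935 ± 197 in curcumin control and 2967 ± 274 in standard control (SD, n = 3 each). Its log2 differences were 0.08 or less in size in each of the 4 comparisons between groups. Acsl5, an acyl-CoA synthetase of the intestine, lay between 1180 and 1603. Eci1, the mitochondrial isomerase for unsaturated chains, lay between 766 and 1081, and Eci2, its peroxisomal counterpart, between 543 and 758. Pex11a, which takes part in peroxisome division, lay between 528 and 715 on its brighter probe set, whereas its dimmer one had an interaction of -0.55 ± 0.22 (adjusted p = 0.44 in limma). In the fit of all arrays, no peroxisomal member (Ehhadh, Hsd17b4, Eci2 and Pex11a) reached an unadjusted p of 0.05 in limma in any of the 5 comparisons at its gene-level probe set. After adjusting for the array set, Hsd17b4 did in 3 of them. It was then at -0.44 for TNBS on the standard diet, 0.31 for curcumin under TNBS and 0.47 for the interaction. Ehhadh, the bifunctional enzyme of peroxisomes, averaged 368 ± 75.7 in curcumin TNBS and 286 ± 85.7 in standard TNBS (SD, n = 3 each), with overlap. Fabp1, the liver fatty acid binding protein, read 12.6 to 120 and 2 to 30.9 on its probe sets, below the filter.

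Probe sets of 1 gene did not always follow each other, and some parted with the array sets. Affymetrix gives the suffix x_at to probe sets with probes that also match other sequences. Of the 8 member probe sets of this kind on 430A, 6 had no overlap between the 2 array sets, against 1 (Etfb) of the 47 others. Over all 430A probe sets, 21.8% of the 1512 of this kind and 14.9% of the 21114 others had no overlap. The sets were themselves drawn from the first principal component of these arrays, so that some separation is built in. For Hadh, an x_at probe set below the filter read 12.8 to 168 in set 1 and 423 to 543 in set 2, while the brightest, also an x_at, read 6791 to 9619 in set 1 and 6256 to 9333 in set 2. For Cpt1a, the tested x_at probe set read 147 to 316 in set 1 and 528 to 772 in set 2, whereas the brighter one gave the steady values above. The tested x_at probe sets of Cpt2, Hadhb and Hsd17b4 parted in the same way, with log2 differences of 0.49, 0.88 and 0.87 between set 2 and set 1. The groups hold unequal numbers from the sets, 1 array of set 1 and 2 of set 2 in curcumin TNBS and in standard control, and the reverse in standard TNBS and in curcumin control. The largest fold of Ppargc1a came from an x_at probe set, with 109, 103 and 106 in standard TNBS, against 145, 298 and 382 in standard control, and its difference of -1.16 became -0.97 ± 0.24 after adjusting for the array set (adjusted p = 0.0891 in limma).

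**Figure D5:**
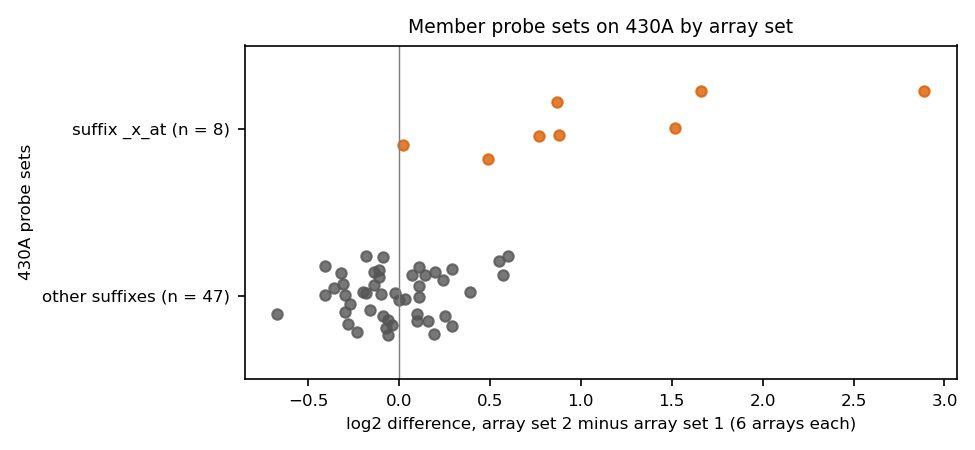
Log2 difference between array set 2 and array set 1 (horizontal axis, 6 arrays each) for the 55 member probe sets on 430A, tested or not; upper row the 8 with the suffix x_at, lower row the 47 others, with vertical scatter only to part the points. The x_at probe sets reach 2.89 with a median of 0.88, and the others lie between -0.67 and 0.60.

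Other genes of the pathway were read from lists chosen beside the members. Their counts stand against the shares of all tested genes, 4.45% lower and 3.94% higher for TNBS on the standard diet and 6.75% higher and 8.74% lower for curcumin under TNBS, and lists of 3 to 15 genes give coarse shares. Of the 3 tested ketone body genes, 1 was lower in standard TNBS than in standard control at an unadjusted p under 0.05: Oxct1, which activates ketone bodies for use as fuel, averaged 1726 ± 277 in standard TNBS and 2259 ± 60.4 in standard control (SD, n = 3 each), a log2 difference of -0.40 ± 0.13 with an adjusted p of 0.334 in limma. The other two, Acat1 and Bdh1, which help form and interconvert ketone bodies, were at 0.04 ± 0.19 and -0.08 ± 0.16. Oxct1 was also the 1 of the 3 that was higher in curcumin TNBS than in standard TNBS, at 0.39 ± 0.13 (adjusted p = 0.317). Of 10 further tested mitochondrial genes, 1 was lower and 0 higher. That gene was Acad11, an acyl-CoA dehydrogenase, with 868 ± 38.4 in standard TNBS and 1200 ± 40.9 in standard control (SD, n = 3 each) and an adjusted p of 0.265 in limma. In the same list, Slc22a5, the plasma membrane carnitine transporter, was at -0.16 ± 0.13 and Acad10, a related dehydrogenase, at -1.24 ± 0.60. Acad11 and Slc22a5 were the 2 of the 10 higher in curcumin TNBS than in standard TNBS, at 0.43 ± 0.14 and 0.38 ± 0.13 (adjusted p = 0.293 and 0.334), and 0 were lower.

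Of 15 other tested peroxisomal genes, 1 was lower in standard TNBS at an unadjusted p under 0.05 and 0 were higher. Cat, the peroxisomal catalase that breaks down hydrogen peroxide, averaged 1750 ± 252 in curcumin TNBS, 898 ± 57.9 in standard TNBS, 1310 ± 246 in curcumin control and 1382 ± 248 in standard control (SD, n = 3 each). Its log2 difference was 0.94 ± 0.17 between curcumin TNBS and standard TNBS (adjusted p = 0.107 in limma) and -0.60 ± 0.17 between standard TNBS and standard control (adjusted p = 0.237). Acaa1b, a peroxisomal thiolase and PPAR target in mouse liver, averaged 587 ± 85.8 in curcumin TNBS and 334 ± 109 in standard TNBS (SD, n = 3 each), a difference of 0.82 ± 0.20 with an adjusted p of 0.165 in limma. These were the 2 of the 15 that were higher under curcumin at an unadjusted p under 0.05, and 0 were lower. Acot8, a peroxisomal thioesterase, was at 0.34 ± 0.14 between curcumin control and standard control (adjusted p = 0.998).

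Among 7 other tested uptake and binding genes, 2 (28.6%) were higher in curcumin TNBS than in standard TNBS at an unadjusted p under 0.05, against 6.75% of all genes, and 0 were lower, against 8.74%. They were Fabp4, the fatty acid binding protein of fat cells, at 0.60 ± 0.26, and Fabp5, that of epithelia, at 0.60 ± 0.21, with adjusted p-values of 0.451 and 0.345 in limma. Lpl, the lipoprotein lipase, was at 0.58 ± 0.29, and Fabp4 and Lpl are also on the adipocyte list. After TNBS on the standard diet 1 of the 7 was lower, Fabp4, at -0.60 ± 0.26, and 0 were higher. Of 8 tested PPAR partners and coregulators, 0 reached an unadjusted p under 0.05 in this comparison, and 1 was lower in standard TNBS than in standard control: Nrip1, a corepressor of fat oxidation genes, at -0.42 ± 0.18 (adjusted p = 0.484). Ncoa2 and Cited2, both coregulators, were at -0.24 ± 0.22 and -0.05 ± 0.17. Of 8 other tested PPAR targets, 2 were lower after TNBS on the standard diet and 1 higher (Hilpda, a lipid droplet protein, at 0.40 ± 0.18). Txnip, which restrains glucose uptake, averaged 4062 ± 319 in standard TNBS and 5572 ± 865 in standard control (SD, n = 3 each), at -0.45 ± 0.12 with an adjusted p of 0.206 in limma, and Retsat, a retinol saturase, was at -0.39 ± 0.15. Plin5, a lipid droplet protein of oxidative tissues measured on 430B, was at -1.14 ± 0.43 between curcumin TNBS and standard TNBS (adjusted p = 0.135), in the group that holds the outlying arrays.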

How the data were processed

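Total RNA of 12 numbered samples was hybridised to 24 arrays, 12 of each type. The deposited tables hold linear intensity values, made by the authors with GCOS per the submitters' processing notes (version not given in the sources used here). The trimmed mean of each deposited array (2% off each end) is near 500, so the arrays were used as scaled. All columns were matched to samples by their labels. Probe sets were named by the platform annotation when it gives 1 symbol. Values were taken as log2(signal + 16). Probe sets above the 40th percentile of mean log2 signal were kept (13575 on 430A, 13506 on 430B). The 430A and 430B arrays were fitted separately, each with 4 group means over its 12 arrays, in limma 3.58.1 (R 4.3.3; lmFit, eBayes with a trend), with two-sided p-values adjusted by Benjamini-Hochberg within an array type. The script was tested on simulated data. A gene is represented by its brightest tested probe set, from 430A where possible. Log2 differences are on the log2(signal + 16) scale, which understates changes of dim probe sets.

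Values in every sample are given for the PPARs, Ppargc1a and the 5 member genes with the smallest p in each of the 5 comparisons, and of each other pathway list the 3 genes with the smallest p are named. Other probe sets and members were picked after their values were seen. The members and lists were chosen with earlier results of these data known. Alternatives were a pseudocount of 64, no filter, quantile normalization, eBayes without a trend, an adjustment for the array set with 2 arrays dropped from 430B, and each sample left out in turn. Figures were drawn with matplotlib 3.10.9. The number of arrays limits the precision.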

Additional observations from a re-analysis of the deposited data

How the results depend on the processing

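No tested result that passed its threshold reversed under any alternative. The single member probe set past the threshold for TNBS on the curcumin diet (Acot2) became 0 without the brightness filter, with quantile normalization, without the trend in eBayes, and after adjusting for the array set and dropping the outlying 430B arrays. Leaving out 1 sample gave 0 to 4, with 2 without curcumin control sample 1, 4 without curcumin TNBS sample 1 and 0 without any of the other 10. The single probe set for curcumin against standard diet under TNBS, again Acot2, became 0 without the filter, without the trend and after that same adjustment, and 0 to 4 with 1 sample left out, the 4 without curcumin TNBS sample 1. Without that sample the group on 430B holds only the outlying arrays. The interaction count of 0 became 0 to 2 with 1 sample left out, the 2 without that same sample. The median interaction of the members, 0.06, became -0.06 to 0.12, the lowest without standard TNBS sample 1. After that adjustment, an alternative chosen after seeing the data for these counts, the member genes at an unadjusted p under 0.05 became 2 higher for TNBS on the standard diet, 2 lower for TNBS on curcumin, 8 higher and 2 lower for curcumin under TNBS, and 1 higher for curcumin under the control enema. The median for TNBS on curcumin, -0.07, was then 0.02, a move within the spread between samples. Of the values for single genes under the alternatives, 393 kept their direction and their side of the threshold, 26 lost a call and 6 gained one. Only Acot2, for TNBS on curcumin and for curcumin under TNBS, was past the threshold in the fit of all arrays. The other values had no call to lose, so the 393 do not measure how stable the calls were. The cause of these changes was not tested. No paired analysis was possible because the sample numbers are unique across groups. Differences under about 2 SE, where the median SE was 0.177 on 430A, cannot be told from the spread between these arrays. Probe sets below the filter give no level here.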
